A study of Mus musculus with 33 samples.

Results

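CD4 T cells were followed across the bone, brain, liver and lung of mice that had received tumour cells by intracardiac injection. A cell was counted as a CD4 T cell when it carried at least 1 unique molecular identifier (UMI, a sequenced RNA molecule) of Cd3e or Cd3d and at least 1 of Cd4, and none of Cd8a, Cd8b1 or the B cell gene Cd79a. This rule found 969 cells among 55366 kept cells of the 32 intracardiac samples, 1.75% of them; the whole series held 81552 kept cells. Of the 969 cells, 861 came from biotin negative and 108 from biotin positive samples, and the biotin negative lung alone gave 512 of them (52.8%).

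SAMENT is a proximity method in which cancer cells bring an enzyme that attaches biotin to the cells around them, so a biotin positive sort holds the labelled neighbours and a biotin negative sort the remainder of the same tissue. Every group used here was mouse tissue taken after intracardiac injection and overnight labelling. The 8 groups were biotin negative and biotin positive bone (femur and tibia), brain, liver and lung, each with 4 samples numbered 1 to 4. The sources used here do not give the strain, age or sex of the mice, the tumour line or the promoter of the labelling construct. Nothing states that samples came from separate mice, so p-values measure the spread between these samples, which may be partly technical.

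CD4 T cells recognise peptides on MHC class II molecules and act mainly through signals to other cells. Naive and central memory cells carry the chemokine receptor Ccr7, which leads them into lymph nodes, whereas effector cells lose it and enter tissues. Regulatory T cells, defined by the transcription factor Foxp3, restrain other T cells and often carry the IL-2 receptor chain Il2ra, Ctla4 and Ikzf2 (Helios). The CD4 and CD8 lineages part in the thymus, where the transcription factor ThPOK (Zbtb7b) favours the first and Runx3 the second.

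The rule rested on few molecules. Of the members, 67.0% had exactly 1 Cd4 UMI and 22.8% had 2, so a cell with 1 UMI stood just inside the rule and a CD4 T cell whose Cd4 RNA was not captured stood outside it. Among 9146 cells with Cd3 and without Cd79a, 969 had Cd4 alone, 1294 had Cd8a or Cd8b1 alone, 38 had both and 6845 had neither. The median member held 3356 UMIs, against 5252 over all kept cells, and members of biotin positive samples held more (4348.5) than those of biotin negative samples (3297). Counts of members are therefore counts of detected cells, and fewer cells and less Cd4 RNA per cell cannot be told apart.

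The label was checked against other T cell genes. Another T cell receptor gene was found in 951 of the 969 members (98.1%). Trac, the receptor's alpha chain constant region, was found in 77.2% of members at a level of 511 UMIs per 1000000 UMIs summed over the members. The 180 members with Cd3d alone carried another receptor gene in 93.3% of cases, at a median depth of 3072.5 UMIs. Cd40lg, the helper ligand that engages B cells, was seen in 26.0% of the biotin negative lung members, and Zbtb7b in 7.62% of them.

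RNA from other cells was present in most members. S100a8, a neutrophil gene, gave UMIs in 93.1% of CD4 T cells. A Cd4 UMI was found in 0.362% of 6358 B cells (median 2462 UMIs) and in 4.85% of 4392 macrophages with C1qa and C1qb (median 5416 UMIs). Cd3d UMIs were found in 16.2% of 20263 neutrophils (median 5506 UMIs). At least 2 of 12 marker genes of other lineages, which could belong to the same lineage, occurred in 8.98% of members. The share was 7.20% in biotin negative and 23.1% in biotin positive samples. Such cells are called mixed-lineage cells here. Their part in the results was not tested except where values without those cells are given.

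Before the results, the libraries themselves were compared. Samples with the same replicate number shared 0 cell barcodes over 112 pairs, whereas samples with different numbers shared 341 over 188 of 384 pairs. Samples that are tagged and captured together cannot share a barcode once separated. The labels do not say which samples were captured together, so where a value follows the replicate number, the number and a capture pool cannot be told apart. Total UMIs per sample ranged from 497940 to 44874529, which included all cells and not only CD4 T cells.

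CD4 T cells had their highest mean share of kept cells in the biotin negative lung. Their shares there were 6.52%, 1.87%, 6.30% and 4.71% in replicates 1 to 4, a mean of 4.85% ± 2.15 (SD, n = 4). In biotin negative brain the shares were 1.07%, 1.3%, 2.64% and 1.96%. In biotin negative liver they were 1.69%, 1.72%, 0.771% and 1.5%, and in biotin negative bone 1.62%, 0.778%, 0.491% and 0.342%. Lung replicate 2 overlapped the brain samples, and the other 3 lung samples lay above every sample of the other tissues.

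The lung share exceeded the mean of the other biotin negative samples, 1.33% ± 0.666 (SD, n = 12), by 3.52 percentage points (two-sided exact permutation test over 1820 assignments, p = 0.00165, Benjamini-Hochberg adjusted p = 0.0247 over 30 share tests). The adjusted value was 0.0824 when biotin negative lung replicate 1, 3 or 4 was left out, with differences of 2.96, 3.04 and 3.57 points. After every cell had been thinned to 1000 UMIs the difference was 1.12 points, with an adjusted p of 0.104 in the same exact test. Thinning lowered the share in every tissue, and the mean lung share was 3.66 times that of the other tissues before it and 3.37 times after it. On the log2 scale, with 0.5 counts added and also chosen after seeing the data, the adjusted p of the exact permutation test was 0.0330 before thinning and 0.190 after it. With the replicate number as a block, an alternative chosen after seeing the data, the adjusted p was 0.0586 in an exact permutation test within numbers. In bone the share was 1.86 points below the mean of the other tissues, which did not pass (exact permutation p = 0.0769). Brain lay 0.614 points and liver 1.04 points below the other tissues, with exact permutation p of 0.638 and 0.390.

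**Figure D1:**
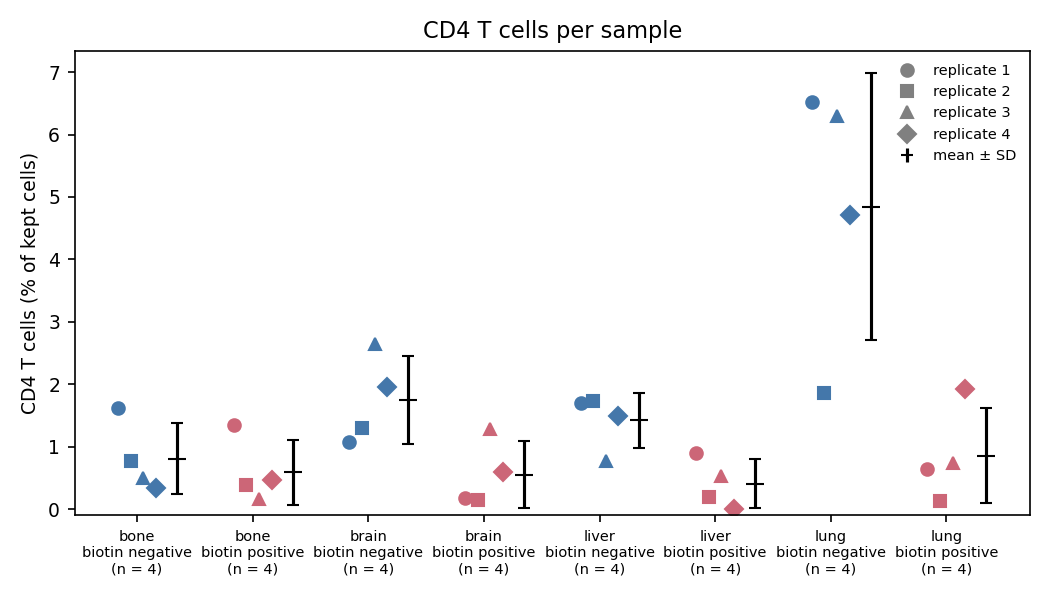
CD4 T cells as a percentage of kept cells in each of the 32 samples, by tissue and biotin sort, with the mean and SD of each group beside the points and the replicate number as the symbol. 3 of the 4 biotin negative lung samples sit between 4.71% and 6.52%, above every other sample.

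Mean shares were lower among biotin positive cells of brain, liver and lung, but with 4 samples against 4 none of these differences passed the test. In lung the biotin positive shares were 0.651%, 0.126%, 0.740% and 1.92%, a mean of 0.858% ± 0.756 (SD, n = 4), 3.99 points below the negative samples. Replicate 4 of the positive lung lay just above replicate 2 of the negative lung, so the groups overlapped by 1 sample. The brain had 0.181%, 0.148%, 1.29% and 0.598% and the liver 0.901%, 0.193%, 0.538% and 0%; the liver sample at 0 held 94 kept cells, which allows a share of up to 3.19% (3 counts of the total, counting error only). The exact permutation p was 0.0571 in each of brain, liver and lung, above the smallest value of 0.0286 that this design allows, and 0.190 after adjustment. Biotin positive was below biotin negative in 4 of 4 same-numbered samples in each of these tissues.

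In bone the biotin positive shares were 1.34%, 0.391%, 0.161% and 0.462%, and the mean of 0.590% was 0.218 points below the 0.808% of the negative samples (exact permutation p = 0.543). The difference between the sorts was compared between tissues directly, as positive minus negative for each replicate number, 4 differences per tissue. The labels do not say that same-numbered samples belong together, so the test of this difference rests on an assumed pairing. In lung it was 3.18 points further below 0 than in the other tissues, which was -3.99 against -0.808 (exact permutation p = 0.000549, the smallest the design allows, adjusted p = 0.0165). Differences in points depend on the level they start from, and the negative lung mean was 4.85% against 1.33% elsewhere. As ratios of the means, the positive share was 0.177 of the negative one in lung, 0.287 in liver, 0.318 in brain and 0.730 in bone. With log2 shares the lung difference between sorts did not pass against that of the other tissues (-2.81 against -1.20, exact permutation p = 0.0126, adjusted p = 0.126), so a larger relative difference in lung was not established. With cells thinned to 1000 UMIs the comparison in points gave -1.14 and an adjusted p of 0.0577. In bone the difference lay 1.85 points above that of the other tissues, with an exact permutation p of 0.0495 that did not pass after adjustment (0.190). These shares are of sorted cells, so the composition of each sort also sets them.

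The balance of CD4 and CD8 T cells leaves the other cells of a sort out of the denominator. Among the biotin negative tissues it was the most even from sample to sample in the lung, where CD4 T cells were 55.4%, 54.0%, 56.9% and 57.3% of CD4 and CD8 T cells together, a mean of 55.9% ± 1.51 (SD, n = 4). In biotin negative liver the values were 39.0%, 55.8%, 38.7% and 50%, and in brain 29.3%, 51.4%, 43.9% and 27.7%. Bone had the lowest mean of the negative tissues, with 22.2%, 27.0%, 34.3% and 41.4%. Lung replicates 1, 3 and 4 and liver replicate 2 lay above 55%, and the lung values overlapped the liver ones. With cells thinned to 1000 UMIs before the rule was applied, the lung samples ran from 29.2% to 55.6% (SD 11.3, n = 4) and the SD in liver was 8.42. Thinning left 336 CD4 and CD8 T cells in the lung, and the lowest value was 7 of 24 cells (exact 95% interval 12.6% to 51.1%). The evenness in lung was thus not seen at this depth, and the part of counting error in the spread was not tested.

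The lung mean was 17.5 points above the other tissues and the bone mean 15.4 points below them. Neither passed after adjustment: the exact permutation p was 0.00824 (adjusted 0.0824) for lung and 0.0247 (adjusted 0.171) for bone. With members carrying markers of other lineages left out, bone lay 18.9 points below and its adjusted p was 0.0440 in the same exact test. Without liver replicate 2 the lung difference was 19.1 points with an adjusted p of 0.0220.

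In biotin positive brain CD4 T cells were 7.14%, 9.30% and 18.2% of CD4 and CD8 T cells in the 3 samples with at least 10 such cells, a mean of 11.5% ± 5.85 (SD, n = 3). All 3 lay below all 4 biotin negative brain samples, by 26.5 points on average. The exact permutation p of 0.0286 was the smallest that 3 against 4 samples allow, and the adjusted p was 0.171. These values rested on 1, 4 and 4 CD4 T cells. The positive and negative sorts of bone averaged 31.1% and 31.2%, those of liver 39.0% and 45.9%, and those of lung 49.3% and 55.9%, with exact permutation p of 1.0, 0.333 and 0.543 and with 3, 2 and 4 positive samples. The positive lung samples spread from 30% to 76.5%.

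**Figure D2:**
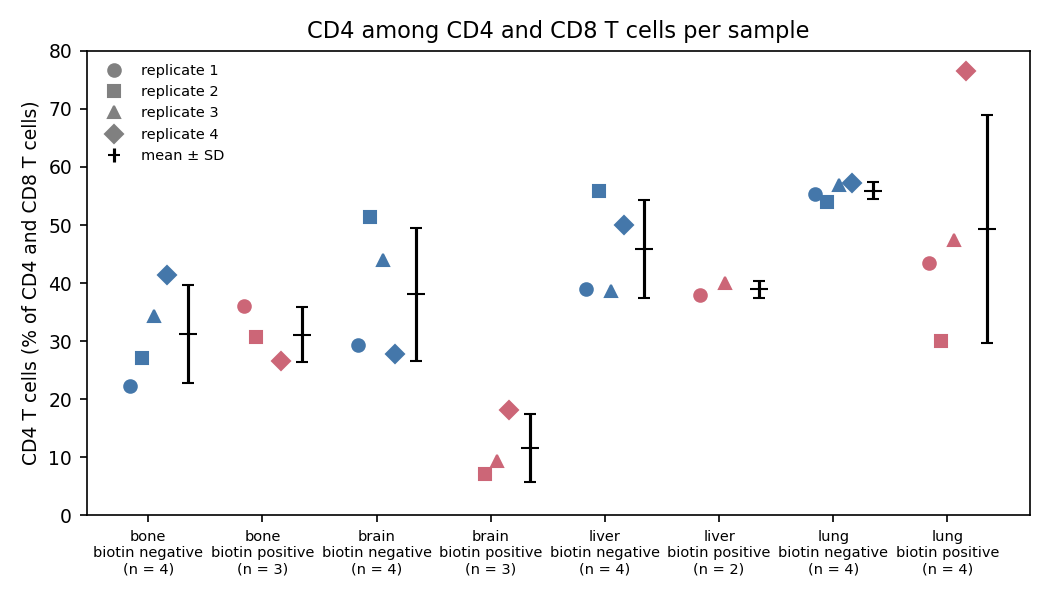
CD4 T cells as a percentage of CD4 and CD8 T cells in each sample with at least 10 such cells, with the mean and SD of each group. The 4 biotin negative lung samples lie between 54.0% and 57.3% and the 3 biotin positive brain samples between 7.14% and 18.2%.

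The RNA of the members was next summed per sample and compared between tissues, for the 20 samples with at least 10 members. All 16 biotin negative samples entered, but only 4 biotin positive ones (1 of bone, 1 of liver, 2 of lung), so biotin sorts could be compared in lung alone. Of 5393 genes tested with edgeR's quasi-likelihood test at a Benjamini-Hochberg adjusted p under 0.05, 10 differed between bone and the other tissues (0.185% of genes; 0.167% higher and 0.0185% lower), 3 between lung and the others (0.0556%), and 0 each for brain and liver. The share of genes whose groups did not overlap was 0.371% for bone, 0.278% for lung, 0.0927% for brain and 0.0742% for liver. At an unadjusted p under 0.05, brain had 162 and liver 150 genes, and DESeq2 called 1 and 0.

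In bone, Cd28, the costimulatory receptor that completes T cell activation, was lower. Cd28 (chr1:60716800-60773359, GRCm38, GENCODE M21) stood at 195, 138, 149 and 113 CPM (UMIs per 1000000, TMM-normalised) in bone replicates 1 to 4. It ranged from 214 to 652 over the other 12 biotin negative samples. All 4 bone samples thus lay below all the others, and the log2 fold change was -1.36 ± 0.26 (SE; edgeR quasi-likelihood test, adjusted p = 0.0293). Cd28 stayed lower in each of the 25 alternatives, with log2 fold changes from -1.52 to -1.19, but its adjusted p passed 0.05 in 8 of them. These were the fits without bone replicate 2, 3 or 4, without liver replicate 2, without lung replicate 1 or 2 (adjusted p from 0.0515 to 0.160 in edgeR over these 6), with at least 20 members per sample (1.0), and without cells of mixed lineage markers (0.0842).

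Cd28 was the 1 of 17 tested genes of T cell receptor signalling and costimulation that passed. The list had a median log2 fold change of -0.89 in bone and 0 members above 0, beside a median of 0.02 over all genes. The list for neutrophil genes had a median of 2.47 with 12 of 12 members above 0 and none past the test. Genes of plasmacytoid dendritic cells had 2.34 (8 of 8 above 0), phagocyte genes 1.19 (13 of 13) and cell cycle genes 0.95 (17 of 17), also with none past the test. Summed over its 12 genes, the neutrophil list ranged from 2285 to 209378 CPM in biotin negative bone and from 2401 to 43154 in biotin negative brain, liver and lung. The part of these lists in the lower T cell gene levels was not tested.

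Of the 9 genes higher in bone, 5 had most of their UMIs in 1 sample, bone replicate 4. Elane, neutrophil elastase, was at 7.81, 57.5, 29.7 and 2750 CPM in bone replicates 1 to 4, and 413 of its 422 UMIs came from replicate 4. The same replicate held 302 of 306 UMIs of Ctsg, 415 of 462 of Prtn3, 185 of 193 of Mpo and 120 of 126 of Ms4a3. All 60 UMIs of Olfm4 came from replicate 2. Atp6v0c, a subunit of the vacuolar proton pump, was the only gene higher in bone without overlap, at 328, 414, 758 and 639 against 121 to 323 elsewhere (log2 fold change 1.13 ± 0.23 SE, edgeR quasi-likelihood test, adjusted p = 0.0329). Atp6v0c missed the threshold in 12 of 25 alternatives, with log2 fold changes from 0.49 to 1.35. The remaining pair was Ifitm2 and Cd63. Except for Cd28 and Atp6v0c, these genes were named after their values had been seen. Without bone replicate 4, 1 gene passed, and without bone replicate 1 or liver replicate 1, 134 and 102 did.

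In the biotin negative lung 3 genes were higher and none lower. Tgif1 (chr17:70844205-70853546, GRCm38), a transcriptional repressor of TGF-beta signalling, stood at 133, 223, 123 and 70.5 CPM in lung replicates 1 to 4 and between 20.0 and 58.6 in the other 12 samples (log2 fold change 1.5 ± 0.28 SE, edgeR quasi-likelihood test, adjusted p = 0.0428). Sik1, a salt-inducible kinase, had 116, 118, 137 and 47.7 in lung and 11.5 to 51.6 elsewhere, so that 1 lung sample overlapped (1.60 ± 0.30 SE, adjusted p = 0.0428). Penk, which encodes the opioid precursor proenkephalin, gave 38, 0, 67 and 35 UMIs in the lung samples and 2 UMIs in the other 12 together (5.46 ± 0.84 SE, adjusted p = 0.0141). Sik1 and Penk were named after their values had been seen. The count of 3 was 0 with DESeq2 and 12 with the replicate number as a block, a pairing that the labels do not establish. Tgif1 missed the threshold in 18 of 25 alternatives while its log2 fold change stayed between 1.19 and 1.73.

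The T cell lists gave no calls in lung. Of 13 regulatory T cell genes tested, 12 were above 0 with a median log2 fold change of 0.80. Of 11 genes of tissue residency, 11 were above 0 with a median of 1.00, and of 7 genes of the Th17 state, 7 were above 0 with a median of 0.87, beside a median of 0.04 over all genes. Lists of other T cell states rose too: Th2 (1.09, 4 of 4 above 0), follicular helper (1.065, 6 of 7), checkpoint (0.87, 7 of 7), cytotoxic (0.70, 10 of 13) and Th1 (0.45, 7 of 9). The naive and memory lists lay at 0.06 and 0.05, and that of NKT and gamma-delta T cells at -0.71 (1 of 3). No particular T cell state is therefore read from these lists. None of these members passed the test. The same held for the 17 receptor and costimulation genes, all above 0 with a median of 0.47, and the 17 cell cycle genes, of which 1 was above 0 with a median of -0.66. Lists of other cell types, with no member past the test, lay on both sides of 0. Medians were below 0 for neutrophils (-0.83, 3 of 12 genes above 0), phagocytes (-0.58, 3 of 13) and plasmacytoid dendritic cells (-2.15, 0 of 8). They were above 0 for NK cells (0.70, 2 of 3), erythroid cells and platelets (0.46, 1 of 2), B cells (0.35, 2 of 2) and other cells of the tissues (0.11, 5 of 8). Their part in the T cell list values was not tested. Tnfrsf4 (OX40), a costimulatory receptor of activated and regulatory T cells, was at 256, 165, 367 and 390 CPM in the lung and between 27.9 and 281 elsewhere; lung replicates 1 and 2 overlapped brain replicate 4. Icos, a receptor of the CD28 family, had means of 438 ± 118 in lung, 252 ± 113 in brain, 228 ± 75.1 in liver and 125 ± 73.9 in bone (SD, n = 4 each), and the ranges of lung and brain overlapped.

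Effector cytokines were seen in small numbers of members. Il17a, the defining cytokine of Th17 cells, gave UMIs in 28 of 512 biotin negative lung members, with 56.1, 388, 223 and 99.5 CPM in replicates 1 to 4. It was found in 3 of 92 bone, 5 of 126 brain and 2 of 131 liver members of the biotin negative samples, of which liver replicate 4 reached 154. Ifng, the Th1 cytokine, was found in 53 of 512 lung, 22 of 126 brain, 3 of 131 liver and 7 of 92 bone members of the biotin negative samples. Il5 gave 0 UMIs in all 969 members, which allows up to 0.310% of members with a UMI.

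No gene of cell state set to be named in every comparison passed the test between tissues. Foxp3 (chrX:7573644-7595245, GRCm38) had means of 42.4 ± 8.27 CPM in lung, 38.3 ± 43.2 in bone, 33.0 ± 33.0 in liver and 19.1 ± 20.3 in brain (SD, n = 4 each). Ikzf2 had 273 ± 44.9 in lung, 225 ± 207 in liver, 135 ± 88.0 in brain and 134 ± 115 in bone. S100a4, a calcium-binding protein of memory cells, had 1435 ± 691 in liver, 1352 ± 427 in lung, 1016 ± 343 in brain and 886 ± 359 in bone. Klf2, a factor that keeps T cells circulating, had 814 ± 175 in liver, 807 ± 345 in lung, 765 ± 241 in brain and 414 ± 106 in bone. Cd69, an early activation and retention marker, had 511 ± 342 in liver, 428 ± 177 in brain, 407 ± 93.3 in lung and 138 ± 67.8 in bone. For Klf2 and Cd69 the bone mean lay below the other 3 by more than its own SD, without passing the test. For Foxp3 and S100a4 the ranges given by the SDs overlapped between all 4 tissues, and for Ikzf2 between all pairs but lung and brain.

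After thinning to 1000 UMIs, Foxp3 was found in 32 of 961 members (3.33%) and in 1 of 6280 B cells. By tissue it averaged 5.14% of members in biotin negative liver, 3.40% in lung, 2.88% in bone and 1.79% in brain, and the exact permutation p for each tissue against the others lay between 0.186 and 0.930. Unthinned, 70 of the 969 members (7.22%) carried a Foxp3 UMI. The direction of the differences changed with the depth used, so no order of tissues is drawn from them.

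The list of naive and central memory genes had no calls between tissues. Its median log2 fold change was -0.80 in bone, with 2 of 15 genes above 0, and 0.35 in liver, with 14 of 15 above 0; brain had 0.19 and lung 0.06. Some of these genes also varied with the replicate numbers. Lef1, a transcription factor of naive T cells, was at 230 to 504 CPM in the 4 biotin negative tissues of replicate number 1 and at 218 to 426 in those of number 2. It was at 29.7 to 111 for number 3 and at 0 to 102 for number 4, without overlap. Ccr7 was at 89.8 to 719 for number 1, 129 to 207 for number 2, 0 to 86.2 for number 3 and 0 to 110 for number 4. After thinning, a UMI of Ccr7 was found in 27.5%, 12.5%, 3.66% and 3.95% of the biotin negative members of numbers 1 to 4. These percentages pool the cells of the 4 tissues. Before thinning, lung replicate 1, the sample at 719 CPM, gave 180 of the 307 members of number 1, so the first percentage rests largely on that sample.

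CD8 T cells showed the same split and B cells a smaller one. Summed over the CD8 T cells of biotin negative samples, Lef1 stood at 333, 384, 157 and 86.5 per 1000000 UMIs for numbers 1 to 4, and Ccr7 at 289, 253, 89.4 and 89.5. In B cells, which use Ccr7 but little Lef1, Ccr7 stood at 175, 188, 132 and 91.0 on the same scale. Ifng in the members leaned the other way, with overlap. It ranged from 0 to 35.1 for number 1 and from 0 to 73.1 for number 2. For numbers 3 and 4 it ranged from 14.9 to 148 and from 33.3 to 117, with medians of 96.1 and 81.8. The labels do not say what a replicate number stands for, so no test was made of it; every tissue is represented once in each number.

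**Figure D3:**
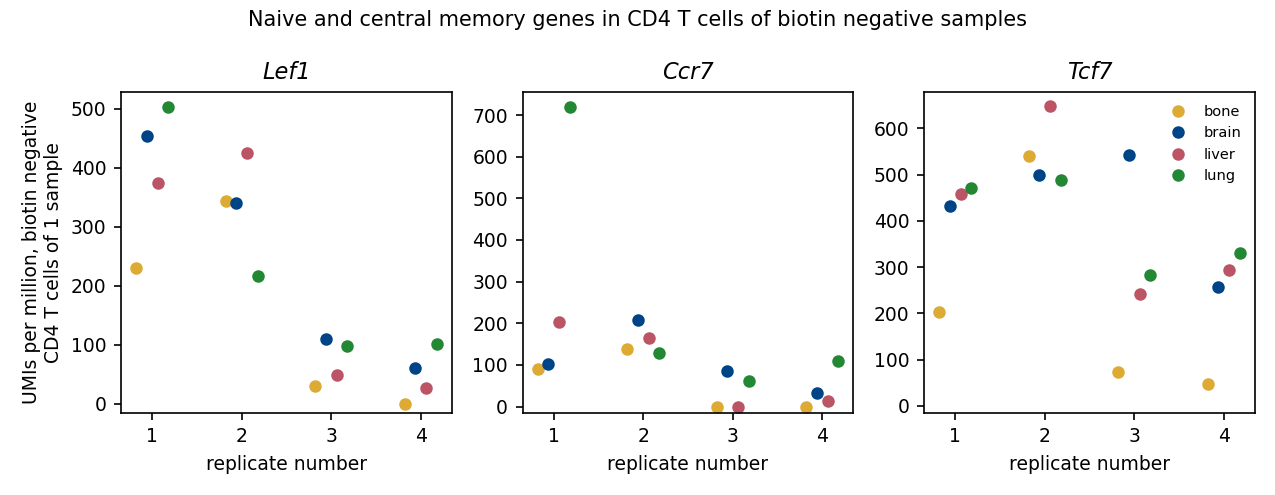
Normalised level (CPM) of Lef1, Ccr7 and Tcf7 in the CD4 T cells of each biotin negative sample, by replicate number (horizontal axis) and tissue (colour). Lef1 lies at 218 or more in every tissue of numbers 1 and 2 and at 111 or less in every tissue of numbers 3 and 4.

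In the lung, 21 genes were higher in biotin positive than in biotin negative members and none lower (0.389% of 5393 genes, edgeR quasi-likelihood test, 2 against 4 samples). Of the lists for other cell types, that for phagocytes held 1 of the 21 (Mrc1) and that for erythroid cells and platelets 2 (Pf4 and Ppbp). The phagocyte list had a median log2 fold change of 1.36 with 10 of 13 genes above 0, and the cell cycle list 1.57 with 16 of 17 above 0 and none past the test. Pf4, a platelet chemokine, was at 859 and 362 CPM in positive replicates 1 and 4 and between 0 and 17.6 in the negative samples (log2 fold change 6.22 ± 0.59 SE, adjusted p = 7.53e-07). The monocyte attractant Ccl7 was at 589 and 299 against 2.07 to 11.8 (6.35 ± 0.55 SE, adjusted p = 7.53e-07). Cxcl1, a neutrophil attractant, was at 276 and 425 against 0 to 17.6, and Dab2, an endocytic adaptor, at 249 and 78.6 against 0 to 5.26. The pair of positive samples lay above all negative ones for each of these 4 genes. With so few samples the groups did not overlap for 21.8% of all genes.

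Of the members 17.8% carried 2 or more of the 12 marker genes of other lineages in the positive lung, against 4.49% in the negative lung. With those cells left out, 4 genes passed. Without positive replicate 1, 4 genes passed, in a fit where the lone positive lung sample is assumed to vary like the other groups. Without negative replicate 1, 3 or 4 the count was 13. T cell lists had no calls: 0 of 17 receptor and costimulation genes, 0 of 13 regulatory, 0 of 15 naive and 0 of 16 memory genes passed, with medians of -0.43, -0.62, -0.80 and 0.07 beside -0.07 over all genes. Cd28 was at 324 and 425 in the positive samples and at 402 to 472 in the negative ones.

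Members with a Foxp3 UMI were compared with those without one in the 5 samples that had at least 5 of each, 42 against 528 cells. Foxp3 itself made the split and is not a result. Of 1844 other genes, 24 differed (1.3%; edgeR quasi-likelihood test with the sample as a block), 18 higher (0.976%) and 6 lower (0.325%). For 27.5% of the genes all 5 samples moved one way. Cells with Foxp3 were deeper over all members, with a median of 4055.5 UMIs against 3299.

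The genes that rose with Foxp3 were led by regulatory T cell genes. Of 9 tested genes of that list other than Foxp3, 5 were higher and 0 lower, with a median log2 fold change of 1.69 beside -0.0025 over all genes. Ikzf2 was at 825, 617, 981, 856 and 737 CPM in the Foxp3 cells of bone replicate 1, liver replicate 1 and lung replicates 1, 3 and 4, all biotin negative. In the other cells of the same samples it was at 175, 135, 105, 245 and 259, with no overlap (log2 fold change 2.56 ± 0.27 SE, adjusted p = 4.99e-04). Il2ra, which lets these cells take up IL-2, rose by 2.82 ± 0.45 (SE, adjusted p = 0.00884) and Ctla4, an inhibitory receptor, by 2.19 ± 0.38 (SE, adjusted p = 0.0148). Tnfrsf4 rose by 2.11 ± 0.26 and Tnfrsf18 (GITR) by 1.69 ± 0.27 (SE, adjusted p = 0.00197 and 0.00884). All of these were higher in 5 of 5 samples.

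Among the Foxp3 cells, levels were not alike in the 3 tissues. Ctla4 was at 968, 797 and 699 in the lung samples, at 309 in liver and at 127 in bone, and Tnfrsf4 at 677, 1108 and 869 in lung, 51.5 in liver and 296 in bone. The 3 lung values lay above both others for each gene, and with 1 sample each of bone and liver this has no test. The order was not particular to the Foxp3 cells: in the members without Foxp3 of the same samples, Ctla4 was at 96.4, 416 and 350 in lung, 49.2 in liver and 50 in bone, and Tnfrsf4 at 203, 279 and 341, 28.7 and 55.0. Memory genes were in part higher: S100a4 by 1.15 ± 0.23, S100a10 by 1.16 ± 0.25 and Vim by 1.12 ± 0.24 on the log2 scale (SE, adjusted p = 0.0329, 0.0462 and 0.0430), 3 of 15 tested genes of the list. S100a4, S100a10 and Vim lost their calls in 5, 6 and 7 of 11 alternatives.

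The 6 genes that fell included Tcf7, a factor of naive and stem-like T cells, and Bcl2, which protects cells from death. Tcf7 was at 42.3, 154, 27.7, 38.9 and 56.7 CPM in the Foxp3 cells and at 250, 492, 558, 331 and 377 in the others, in the same order of samples (log2 fold change -2.41 ± 0.39 SE, adjusted p = 0.00912). Bcl2 was at 13.8 to 56.7 in the Foxp3 cells and at 196 to 432 in the others (-3.06 ± 0.39 SE, adjusted p = 0.00197). Arap2, Vps37b and the myeloid genes Il1b and Retnlg made up the remainder. The neutrophil list had a median log2 fold change of -1.79, with 0 of 8 genes above 0 and 1 called lower. The phagocyte list had -0.66 (1 of 4 above 0), the list of stress and early genes -0.64 (0 of 13) and the B cell list 0.81 (2 of 2). The part of RNA from other cells in this split was not tested. Ikzf2, Bcl2 and Arl5a passed in each of the 11 alternatives, Il2ra, Tnfrsf4 and Tcf7 in all but 1, and the count was 4 without lung replicate 1 and 14 without liver replicate 1.

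**Figure D4:**
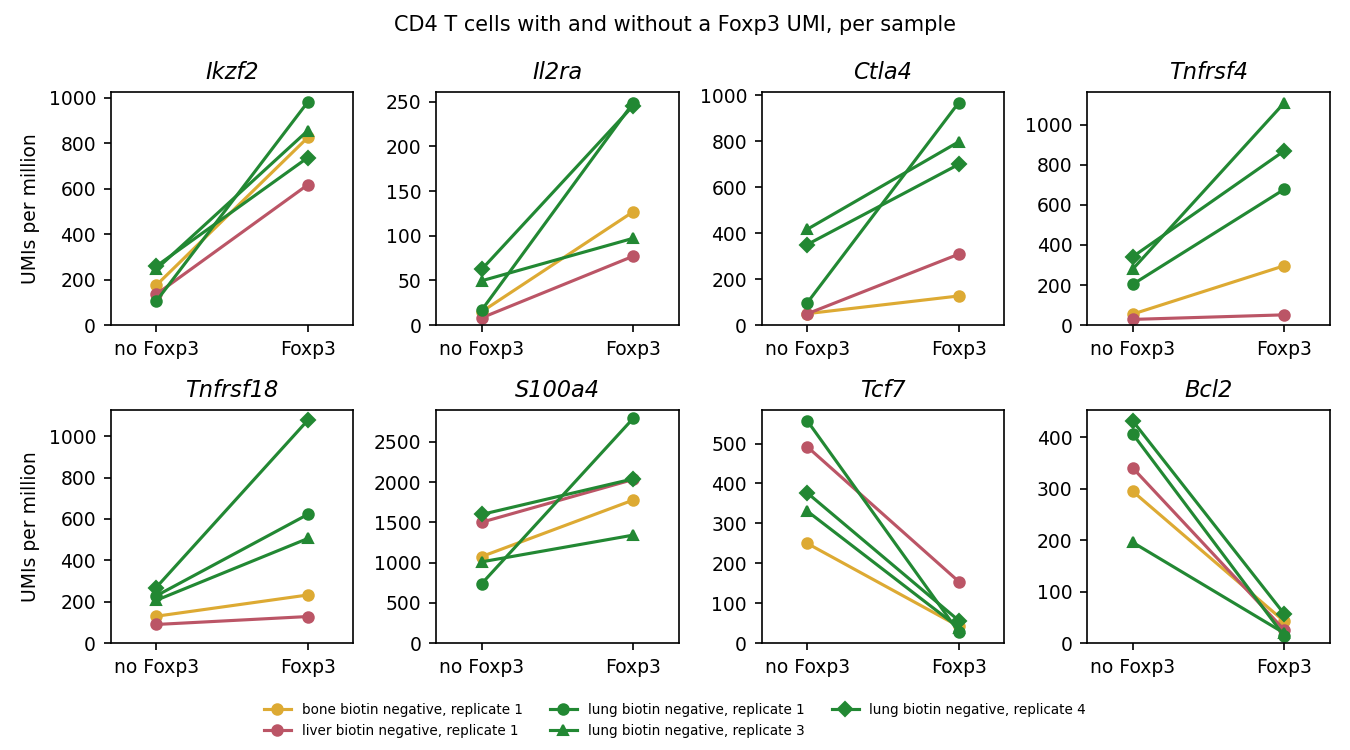
Normalised level (CPM) of 8 genes in CD4 T cells with and without a Foxp3 UMI, with a line for each of the 5 samples, coloured by tissue. Ikzf2, Il2ra, Ctla4, Tnfrsf4, Tnfrsf18 and S100a4 are higher and Tcf7 and Bcl2 lower with Foxp3 in 5 of 5 samples.

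Finally, CD4 T cells were set against CD8 T cells of the same samples, 919 against 1168 cells in 19 samples. Of 2238 genes outside the rule, 282 differed (12.6%; edgeR quasi-likelihood test with the sample as a block), 107 higher (4.78%) and 175 lower (7.82%) in CD4 T cells. All 19 samples moved one way for 0.715% of the genes. Tnfrsf4 (chr4:156013843-156016612, GRCm38) was the gene with the largest rise among those named. It ranged from 26.0 to 362 CPM in CD4 T cells, with a median of 90.8, and from 0 to 85.9 in CD8 T cells, with a median of 2.5. It was higher in 19 of 19 samples (log2 fold change 3.57 ± 0.27 SE, adjusted p = 3.1e-09).

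Some costimulatory and helper genes were higher in CD4 T cells. Icos had a median of 207 CPM against 40.5 in CD8 T cells and was higher in 19 of 19 samples (1.94 ± 0.19 SE, adjusted p = 7.02e-08). Maf, a factor of helper cell cytokine programmes, had 232 against 56.9 (2.14 ± 0.21 SE, adjusted p = 7.02e-08), and Ly6a had 236 against 54.3 (2.12 ± 0.18 SE). Rora rose by 1.71 ± 0.23 and Tmem176b by 1.52 ± 0.33 (SE), both of the 2 tested Th17 genes. Cd5, a brake on receptor signalling, rose by 1.20 ± 0.17, Cd28 by 0.84 ± 0.19 and Cd2 by 0.50 ± 0.11 (SE). With Cd247 these made 4 higher of 16 tested receptor and costimulation genes, while Ptprc was among the lower ones (-0.33 ± 0.096 SE).

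Most of the tested regulatory genes and part of the memory genes were higher as well. Of 6 tested regulatory T cell genes 5 were higher and 0 lower, with a median log2 fold change of 1.40: Tnfrsf4, Ctla4 (2.07 ± 0.24 SE), Ikzf2 (1.51 ± 0.26 SE), Capg (1.29 ± 0.26 SE) and Tnfrsf18 (1.09 ± 0.15 SE). Of 16 memory and effector genes 7 were higher and 0 lower, with a median of 0.41 beside 0.01 over all genes. S100a4 had a median of 1013 CPM against 369, and rose by 1.29 ± 0.24 (SE, adjusted p = 5.16e-04), in 17 of 19 samples. The integrins Itgb1 and Itgb7 rose by 0.96 ± 0.18 and 0.78 ± 0.15 (SE). Runx1 rose by 0.94 ± 0.14 (SE).

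Cytotoxic genes were lower in CD4 T cells, 5 of the 5 tested of a list of 15. Ccl5, a chemokine of effector CD8 and NK cells, had a median of 406 CPM against 3029 and was lower in 19 of 19 samples (log2 fold change -3.40 ± 0.29 SE, adjusted p = 1.03e-08). Klrd1 (CD94) was at 22.7 against 253 (-3.18 ± 0.28 SE), Ccl4 fell by 2.89 ± 0.33 (SE), and Nkg7, a granule protein, was at 101 against 723 (-2.49 ± 0.23 SE). Ctsw fell by 2.17 ± 0.20 (SE). Runx3, the CD8 lineage factor, was at 83.2 against 183 and lower in 18 of 19 samples (-1.13 ± 0.14 SE, adjusted p = 2.14e-06).

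Naive genes split. Of 13 tested, 1 was higher (S1pr1, the receptor for leaving lymph nodes, by 0.68 ± 0.18 SE) and 4 were lower, with a median of -0.31. The lower genes were Dapl1 (-2.40 ± 0.26 SE), Txk (-1.17 ± 0.23 SE), Ccr7 (-0.84 ± 0.15 SE) and Foxp1. Lef1 was at -0.41 ± 0.16 (SE) and Tcf7 at 0.16 ± 0.16 (SE), and these did not pass. Ribosomal protein genes were lower in 37 of 47 tested and higher in none, with a median log2 fold change of -0.28 and a range over the 47 from -0.47 to -0.087. Without the sample as a block 119 genes passed, and Ccr7, S1pr1, Nr4a2 and Cd2 were among the calls lost.

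**Figure D5:**
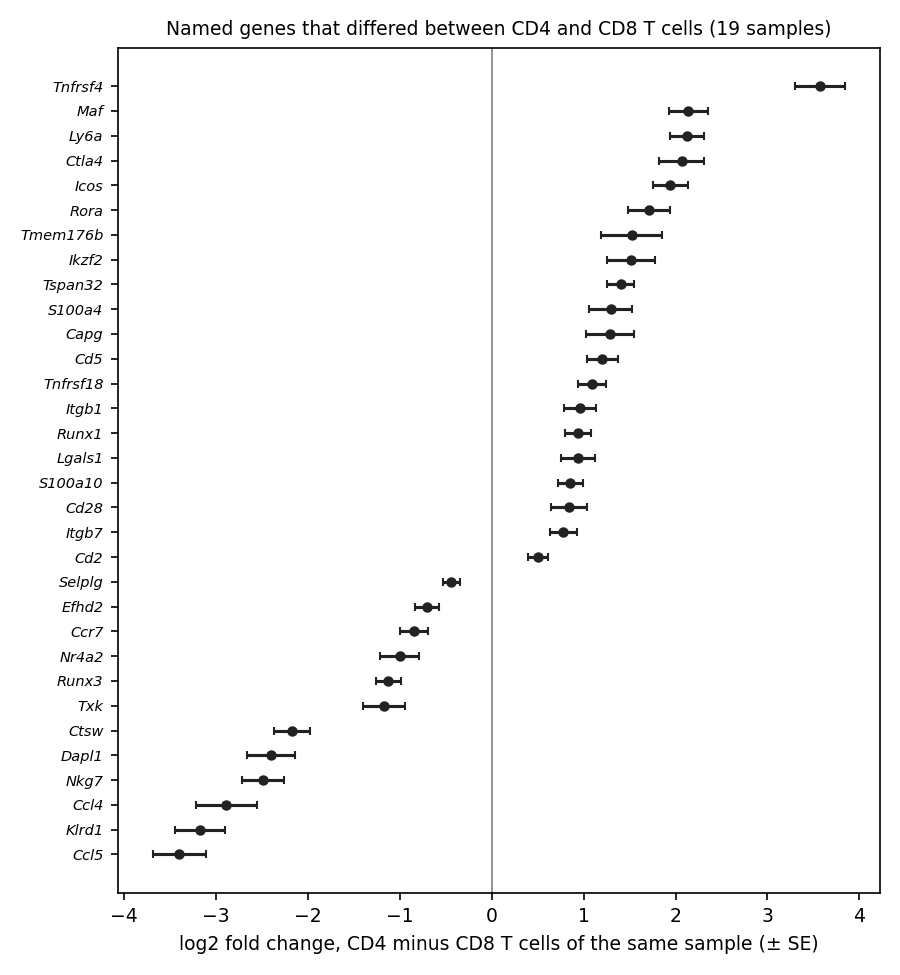
Log2 fold change between CD4 and CD8 T cells of the same samples, with its standard error, for the named genes past an adjusted p of 0.05 (edgeR, 19 samples). Values run from 3.57 for Tnfrsf4 to -3.40 for Ccl5.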

How the data were processed

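Droplet single-cell RNA-seq counts were used from 32 intracardiac samples of mouse tissue; a pooled bone sample (IIA) entered the total of kept cells alone. The deposited values are UMI counts per gene and cell, made by the authors with cellranger 6.1.2 per the file headers (7.1.0 for the pooled sample). The build is mm10, and Cell Ranger and Seurat are named, per the submitters' processing notes; the samples had been multiplexed with CellPlex and separated by the authors, per the labels. The sources used here do not say whether introns were counted.

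Cells with at least 500 UMIs, 200 genes and at most 15% mitochondrial UMIs were kept (55366 of 57065 barcodes). Doublets were not called; cells with 2 or more of 12 markers of other lineages were left out as an alternative. Shares were compared by two-sided exact permutation tests (scipy 1.17.1) with Benjamini-Hochberg adjustment over 30 tests; an alternative's p was adjusted with the other 29 kept. Shares of kept cells were also compared as log2 values with 0.5 counts added. Shares of states were taken after thinning each cell to 1000 UMIs, which left out 8 members. Summed counts of samples with at least 10 members were tested with edgeR 4.0.16 (R 4.3.3, TMM, filterByExpr, quasi-likelihood). The fit was also run on simulated data in which every gene had the same spread. That run does not cover genes whose UMIs lie mostly in 1 sample, and nothing is concluded from it here. CPM values are TMM-normalised within each fit. DESeq2 1.42.0, RLE factors, no filter, a minimum of 20 members, the replicate block and leave-one-out fits were alternatives. 

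Named genes were a set list of state genes, list members past the threshold, and the 5 largest calls in each direction without overlap and with at least 50 CPM. Some of the share tests and named genes are not reported here; they stay in the adjustments and list counts. Members, lists and tests were chosen with earlier results of these data known.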

Additional observations from a re-analysis of the deposited data

Results flagged for a closer look

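The difference in the CD4 T cell share between biotin sorts differed by -3.18 percentage points between lung and the other tissues, lung lying further below 0, and this difference between tissues passed its own exact permutation test, in which same-numbered samples were taken as pairs. It did not pass with log2 shares (adjusted p = 0.126, exact permutation test), and the negative lung started from a higher share (4.85% against 1.33%).

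In all, 125 groups of 4 samples were tested for a sample far from the other 3, and chance gives about 1 in 20. The 6 cases reported here are a part of those found. After thinning, Foxp3 was found in 7.14% of members of biotin negative brain replicate 3 and in none of the other biotin negative brain samples; its unthinned level there was 49.24 CPM, against 4.68 to 12.18 in the others. In biotin negative lung replicate 1, Ccr7 was at 719.33 CPM (60.39 to 129.38 in the others). Gata3, the Th2 regulator, was at 217.59 in lung replicate 2 (123.11 to 132.62). Cd44, an adhesion receptor of memory cells, was at 181.45 in liver replicate 4 (144.13 to 148.86), and Mki67, a proliferation marker, at 196.05 in liver replicate 1 (0 to 32.76). All were biotin negative samples.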

How the results depend on the processing

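None of the called genes that the naming rule chose reversed its direction in any alternative run; genes outside the rule or without a call were not followed. The lung share fell from 3.52 to 1.12 points with cells thinned before the rule was applied (3.66 and 3.37 times the other tissues), and the lung difference between sorts to -1.14 (positive over negative 0.177 and 0.136). With log2 shares, chosen after seeing the data, the lung difference between sorts was -1.61 beyond the other tissues and -2.41 when thinned (adjusted p = 0.126 and 0.0824, exact permutation tests), and the thinned lung share 1.65 (adjusted p = 0.190); brain turned to 0.0471 for the share, 0.0780 when thinned and -0.218 for the sorts, none past the test. With the replicate block, which for shares between tissues was chosen after seeing the data, the lung share kept 3.52 but its adjusted p was 0.0586 (exact permutation test). Same-numbered samples had a median correlation of 0.12 over 24 pairs, 16 of them over 0.1, and 15 of 16 samples lay closest to their own number, a hint from the data, as are the shared barcodes, and not from the design, so the pairing is not established; the block gave 19 genes in bone, 2 in liver and 12 in lung.

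The share results below moved or turned without passing the test, with 1 exception. The CD4 share of CD4 and CD8 T cells, positive minus negative, was 0.329 in bone with at least 1000 UMIs, 1.09 without Cd79a, 2.30 without mixed-lineage cells and 0.936 with the block; liver gave 0.0901 with the block and lung 7.46 without mixed-lineage cells. In bone against other tissues it was -18.9 without those cells, the exception (adjusted p = 0.0440, exact permutation test). Foxp3 shares, lung positive minus negative, were 4.31 unthinned, 1.61 at 2000 UMIs and 0.685 with the block. Against other tissues bone had 2.72 unthinned and 3.97 at 2000 UMIs. At that depth brain had 0.0582, liver -2.43 and lung -1.32, and lung had -0.869 at 20 members or more.

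Counts of genes were 56 for bone, 1 for brain, 0 for lung and 8 for lung sorts with DESeq2, and 17 in bone and 1 in lung with RLE factors. Without a filter bone had 242, brain 27, liver 21, lung 149, lung sorts 127; the cell splits gave 242 for Foxp3 and 653 for CD4 against CD8. With at least 20 members they were 0 in bone, 1 in liver and 0 in lung. Lung gave 0 with only the groups compared and 0 without mixed-lineage cells, where lung sorts gave 4 and Foxp3 13. With no replicate block (samples unpaired), Foxp3 gave 10 and CD4 against CD8 119, and with the minimum of cells doubled Foxp3 gave 73.

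Leaving out 1 sample at a time, counts ranged over 1 to 134 for bone, 0 to 1 for brain, 0 to 2 for liver, 0 to 5 for lung, 4 to 31 for lung sorts, 4 to 30 for Foxp3 and 235 to 310 for CD4 against CD8. The lung share ranged over 2.96 to 4.52, the bone sort difference over -0.470 to 0.0529, and the CD4 to CD8 values over -3.09 to 3.3 for bone sorts, -9.33 to -3.62 for liver sorts, -15.6 to -0.135 for lung sorts and 16.0 to 19.1 for lung. Foxp3 shares ranged over -1.69 to 0.394 in bone, -0.860 to 0.798 in lung and -1.57 to 0.0907 for lung sorts. Bone replicates 3 and 4 and liver replicate 3 held 12 members each, which limits the precision of their values.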
